A study of Mus musculus with 5 samples.

Results

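The genes described here are 10 activity-induced immediate early genes of the mouse dentate gyrus (DG), Arc, Fos, Fosb, Junb, Egr1, Egr2, Egr3, Egr4, Npas4 and Nr4a1. They were chosen by gene symbol, with earlier results of these data known, and all 10 were among the 23420 gene symbols of the data. Of these symbols, 13550 reached 5 in the mean of their regularized log values and count as expressed genes here. Egr2, with a mean of 4.90, fell just short of this level, and the other 9 genes were expressed.

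All mice were wild-type male CD1 mice, an outbred strain, of 4 months by the labels, and were kept for 4 weeks in their environment. LD mice were housed singly with a locked disk, CE (complex environment) mice in groups of 3 with a locked disk and tunnels that were moved daily, and RUN mice singly with a running disk. The DG was microdissected after terminal anesthesia and perfusion, and equal amounts of RNA of 8 mice were pooled into 1 library for each of these groups. L-RUN and H-RUN were pools of the 4 RUN mice with the shortest and the 4 with the longest running distances, so that the RUN library holds the same 8 mice as both of them together. Low and high runners were thus sorted after the fact and not assigned, and CE differs from LD in both company and tunnels. The time of day of dissection is not given in the sources used here.

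Immediate early genes are transcribed within minutes of neuronal firing through transcription factors that are already present in the cell, such as CREB and SRF, and their RNA decays within hours. They code for transcription factors of several families, which drive later gene programs, and for proteins that act directly at synapses, such as Arc. In the DG, few granule neurons are active at any time, and the RNA or protein of these genes is widely used to mark them. In whole tissue, fewer active cells and less RNA per cell cannot be told apart.

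Values are given as regularized log values, which are log2 values that the authors normalized over all 5 libraries and shrank towards each gene's mean. A difference of 0.3, the cut-off of the study, was used to call a gene higher or lower. With 1 library per group there was no test and no p-value, and no replicate shows how mice differ. The measure of error is technical. It was taken from the RUN library, set against a mixture computed from its 2 parts, and scaled to a difference between 2 libraries. These libraries were pooled from the same extracted RNA, so the measure leaves out differences in dissection and extraction. This technical SD was 0.0365 over all expressed genes and between 0.036 and 0.047 for the 10 genes. The sequencing depth is unknown, since counts were not used here.

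All 7 markers of DG granule neurons were expressed, with mean regularized log values from 8.79 for Tdo2 to 12.99 for Calb1. Prox1 was at 11.83 and C1ql2 at 11.96. The L-RUN library stood apart in its other tissue markers. The summed level of 8 leptomeningeal markers differed from LD by 1.55 in L-RUN, 0.98 in RUN, 0.27 in CE and -0.13 in H-RUN. Of the 8, 6 were called higher in L-RUN, 5 in RUN, 4 in CE and 0 in H-RUN. Among all expressed genes, 0.797%, 0.362%, 0.332% and 0.354% were called higher in these groups. The sum is weighted towards Ptgds, the most abundant of these markers, which differed by 1.97 in L-RUN, and the median over the 8 markers was 0.65 in L-RUN, 0.38 in RUN, 0.20 in CE and -0.04 in H-RUN. Of the 5 choroid plexus markers, Ttr and Kl were expressed, with mean regularized log values of 8.05 and 8.73, and Folr1, Kcne2 and Clic6 were not, with 2.42, 2.70 and 3.72. Ttr was called higher in CE, at 0.62, and the summed level of the 5 differed from LD by 0.25 there. The hemoglobin genes Hba-a1 and Hba-a2 were listed at 0 in every library. No marker of any other cell type list was at 0.

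For 7 of the 10 genes, a promoter sequence was available from RefSeq (GRCm38.p6), and 4 of them are shown because they span the differences from LD described next. Nr4a1 was called lower in L-RUN, Fos was lower in all 3 runner libraries without reaching the cut-off, and Junb and Egr4 were not lower than LD in any runner library. Once the trend with transcript length was removed, however, Junb was at -0.02 in L-RUN. Junb and Egr4 also both lay below the mean of LD and CE in RUN and L-RUN, and Egr4 did in H-RUN, at -0.02. Each line gives the 250 bases before the transcription start, 5′ to 3′ on the strand of the gene. Capitals mark the core motif of the cAMP response element, to which CREB binds, read as TGACG or, on the other strand, as CGTCA.
Nr4a1 (chr15:101266596-101266845, plus strand): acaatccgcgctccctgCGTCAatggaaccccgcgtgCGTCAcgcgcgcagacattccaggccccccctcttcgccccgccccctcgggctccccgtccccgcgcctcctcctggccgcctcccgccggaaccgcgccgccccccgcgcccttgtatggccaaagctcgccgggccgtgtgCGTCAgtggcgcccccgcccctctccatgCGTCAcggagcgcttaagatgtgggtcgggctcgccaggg
Fos (chr12:85473640-85473889, plus strand): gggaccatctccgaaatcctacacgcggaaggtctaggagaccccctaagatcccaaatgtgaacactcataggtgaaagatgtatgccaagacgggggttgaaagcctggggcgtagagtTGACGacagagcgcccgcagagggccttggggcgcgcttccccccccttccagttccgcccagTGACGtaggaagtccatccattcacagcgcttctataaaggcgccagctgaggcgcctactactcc
Junb (chr8:84978749-84978998, minus strand): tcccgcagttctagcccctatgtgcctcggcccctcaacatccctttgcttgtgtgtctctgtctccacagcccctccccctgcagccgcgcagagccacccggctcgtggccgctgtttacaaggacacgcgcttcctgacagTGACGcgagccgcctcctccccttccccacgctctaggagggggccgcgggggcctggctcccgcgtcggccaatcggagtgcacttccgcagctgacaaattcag
Egr4 (chr6:85513590-85513839, minus strand): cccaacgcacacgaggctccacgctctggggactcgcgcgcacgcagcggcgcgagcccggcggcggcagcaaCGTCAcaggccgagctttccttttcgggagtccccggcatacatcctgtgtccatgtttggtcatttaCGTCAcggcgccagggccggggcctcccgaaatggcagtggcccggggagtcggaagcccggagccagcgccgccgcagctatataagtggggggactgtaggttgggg
The motif was searched on both strands. It stands 4 times in the window of Nr4a1, 2 times in those of Fos and Egr4 and once in that of Junb. Of the windows not shown, that of Npas4 holds it 2 times and that of Fosb once, and of the 5 start sites listed for Egr2, 3 have windows that hold it 2 times and the other 2 have none. The windows of those 3 start sites overlap and share these matches. Among 27025 mouse promoters of this length, each of a different gene, 17.9% held it at least once, 4.02% at least 2 times and 0.152% at least 4 times. The full element TGACGTCA, which contains the core motif on both strands, was in none of the 4 windows and in 1.62% of all promoters. The CArG box, the 10-base element bound by SRF, was in none of the 4 windows either, nor in those of Fosb and Npas4. Sequence farther than 250 bases before the start was not searched, so a box there would be missed. It was in the windows of 4 of the 5 start sites of Egr2, but 3 of these windows overlap and share the same box. The first start site listed for Egr2 has none. Among all promoters, counted with a single start site per gene, 1.40% held the box, so the Egr2 count is not on the same footing. Fos, Npas4 and Egr4, with 2 motifs each, differed from LD by -0.15, -0.12 and 0.06 in L-RUN, and none was called. Whether the number of motifs goes with such differences was not tested, and for Arc, Egr1 and Egr3 no window was available. A match in these windows is a description and does not show that a factor was bound.

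In low runners, Arc, Nr4a1 and Egr3 were called lower than in LD, and in the whole RUN pool Arc was. The shares of all expressed genes called lower were 2.33% in L-RUN and 0.952% in RUN. No immediate early gene was called higher in any group, and none was called in CE or H-RUN. In all, 7 genes lay below both LD and CE in all 3 runner libraries, namely Arc, Fos, Egr1, Egr2, Egr3, Npas4 and Nr4a1. Fosb, Junb and Egr4 did not. Among all expressed genes, 16.2% did, and RUN is a pool of the other runner libraries and not a separate observation. L-RUN had the lowest value of the 5 libraries for 6 of the 10 genes and CE the highest value for 7. The same held for 28.1% and 22.9% of all expressed genes.

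**Figure D1:**
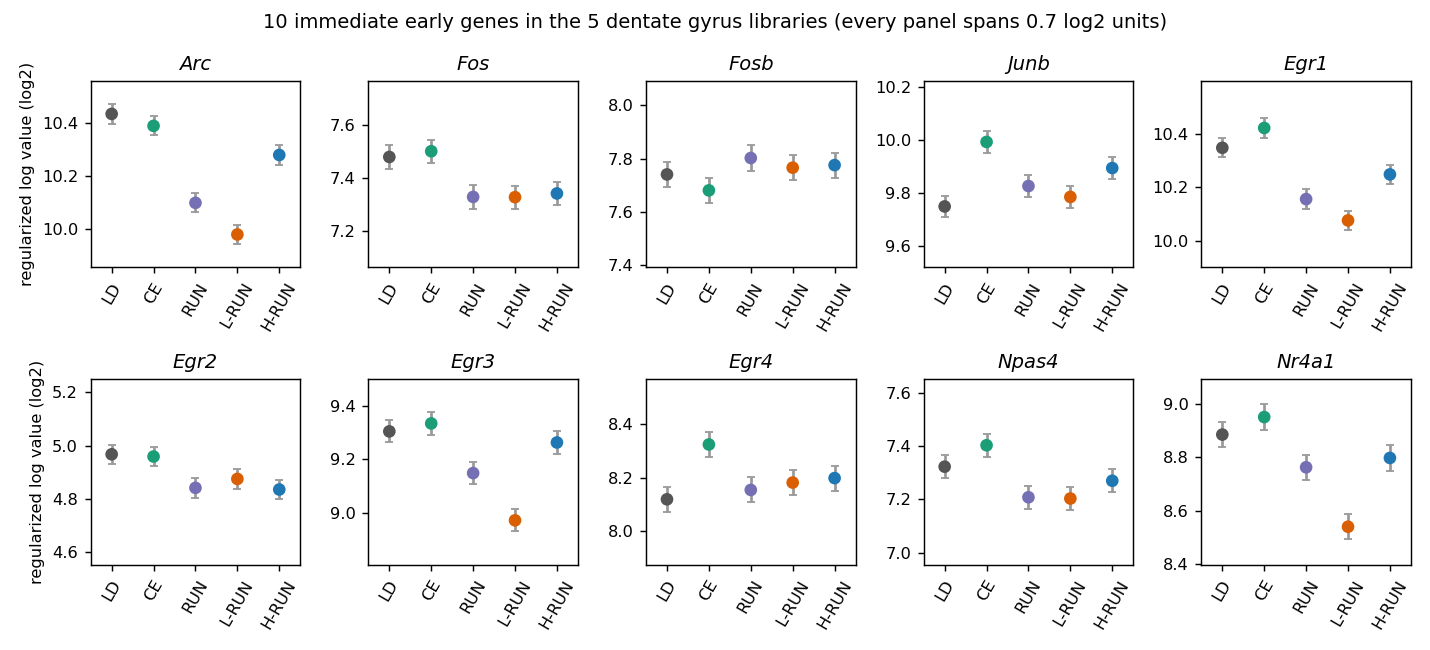
Regularized log value (y axis, log2) of each immediate early gene in the 5 libraries (x axis), 1 point per library, with every panel spanning the same height. Bars are the technical SD of a difference and do not cover differences between mice or in dissection and extraction. L-RUN is the lowest point for 6 genes and CE the highest for 7, against 28.1% and 22.9% of all expressed genes.

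Arc (chromosome 15, 74669083 to 74672570, minus strand) codes for a cytoskeleton-associated protein that promotes the removal of AMPA receptors from synapses, and its RNA travels into dendrites. It had the widest spread of the 10 genes. Its regularized log value was 10.43 in LD and 10.39 in CE, against 9.98 in L-RUN, 10.10 in RUN and 10.28 in H-RUN. LD and CE were thus highest and close to each other, and the runner libraries followed in the order H-RUN, RUN, L-RUN. The place of RUN between H-RUN and L-RUN follows from pooling, since it holds the same mice. The differences from LD were -0.04 in CE, -0.45 in L-RUN, -0.33 in RUN and -0.15 in H-RUN (technical SD 0.036). On the linear scale, Arc was at 73.1% of its LD level in L-RUN and at 89.9% in H-RUN. Only 0.686% of expressed genes had a difference in L-RUN as low as that of Arc or lower, and 0.605% in RUN. Its neighbors in the order of libraries differed by more than 2 technical SDs, except LD and CE.

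Among the zinc finger transcription factors of the Egr family, which bind GC-rich sites and set later plasticity genes in motion, Egr1 and Egr3 were lowest in L-RUN, as Arc was, and Egr2 and Egr4 were not. Egr3 (chromosome 14, 70077203 to 70082614, plus strand) had regularized log values of 9.31 in LD and 9.34 in CE, against 8.97 in L-RUN, 9.15 in RUN and 9.26 in H-RUN. L-RUN stood alone at the bottom, while CE and LD, and LD and H-RUN, differed by less than 2 technical SDs (technical SD 0.042). The difference from LD was -0.33 in L-RUN, past the cut-off, -0.16 in RUN and -0.04 in H-RUN. Egr1 (chromosome 18, 34859823 to 34864984, plus strand), the best known member of the family and a marker of synaptic potentiation, had 10.35 in LD and 10.42 in CE, against 10.08 in L-RUN, 10.16 in RUN and 10.25 in H-RUN. Its L-RUN difference of -0.27 was just short of the cut-off. It was the gene for which all 5 libraries were more than 2 technical SDs from their neighbors in order. That order was CE, LD, H-RUN, RUN, L-RUN, in which the middle place of RUN between H-RUN and L-RUN follows from pooling. Egr4 (chromosome 6, 85511121 to 85513589, minus strand), a further member of the family, had 8.12 in LD and 8.32 in CE, against 8.18 in L-RUN, 8.15 in RUN and 8.20 in H-RUN. Here CE was highest, LD was lowest, and CE lay more than 2 technical SDs above H-RUN, the next in order. The gaps among the 3 runner libraries and LD were each below 2 technical SDs. Egr2 (chromosome 10, 67535475 to 67542188, plus strand), known from myelinating Schwann cells and also induced in neurons, had 4.97 in LD and 4.96 in CE, against 4.87 in L-RUN, 4.84 in RUN and 4.83 in H-RUN. LD and CE lay above the runner libraries, and the whole spread was 0.13. The regularized log shrinks the differences of a gene this low more than those of the others.

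Nr4a1 (chromosome 15, 101254269 to 101274795, plus strand) codes for Nur77, an orphan nuclear receptor that acts as a transcription factor and whose gene is induced by calcium and cAMP. Its regularized log value was 8.89 in LD and 8.95 in CE, against 8.54 in L-RUN, 8.76 in RUN and 8.80 in H-RUN. L-RUN was lowest, and the other 4 libraries differed from their neighbors in the order by less than 2 technical SDs (technical SD 0.047). Over wider steps they differed by more, with RUN more than 2 technical SDs below LD and, by 0.19, below CE. The difference from LD was -0.35 in L-RUN, 78.7% of the LD level, against -0.12 in RUN, -0.09 in H-RUN and 0.07 in CE. Its promoter window, shown above, holds 4 core motifs, and a link between these and its values was not tested.

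The AP-1 genes, whose products pair as Fos and Jun proteins to form a transcription factor, differed in the order of their libraries. Fos (chromosome 12, 85473890 to 85477273, plus strand) had regularized log values of 7.48 in LD and 7.50 in CE, against 7.33 in L-RUN, 7.33 in RUN and 7.34 in H-RUN. The 3 runner libraries lay within 2 technical SDs of each other, as did CE and LD, and the differences from LD were -0.15 in L-RUN and RUN and -0.14 in H-RUN (technical SD 0.044). Fos did not share the gap between low and high runners seen in Arc, Egr3 and Nr4a1, with an H-RUN minus L-RUN difference of 0.01. Fosb (chromosome 7, 19302696 to 19310051, minus strand), whose truncated product accumulates over weeks of repeated stimulation, had 7.74 in LD and 7.68 in CE, against 7.77 in L-RUN, 7.80 in RUN and 7.78 in H-RUN. All libraries differed from the next in order of level by less than 2 technical SDs. RUN, the highest, and CE, the lowest, were 0.12 apart, which is more than 2 technical SDs (technical SD 0.047). The values of a gene cannot separate the full-length from the truncated form. Junb (chromosome 8, 84974484 to 84978718, minus strand), a Jun protein that can dampen AP-1 activity, had 9.75 in LD and 9.99 in CE, against 9.79 in L-RUN, 9.83 in RUN and 9.89 in H-RUN. CE was highest and LD lowest, and the CE difference of 0.24 was the highest of the 10 genes in that group, followed by that of Egr4 at 0.21. Exons of Junb overlap those of Prdx2 on the opposite strand, and whether the counting used strand is not given in the sources used here. Prdx2 differed from LD by 0.01 in CE and by 0.05 in L-RUN.

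Npas4 (chromosome 19, 4984355 to 4990316, minus strand), a basic helix-loop-helix factor that responds to calcium entry rather than to growth factors and shapes inhibitory synapses, had regularized log values of 7.32 in LD and 7.40 in CE, against 7.20 in L-RUN, 7.21 in RUN and 7.27 in H-RUN. CE was again at the top and L-RUN at the bottom, 0.20 apart, and each library differed from the next by less than 2 technical SDs (technical SD 0.044). The difference from LD was -0.12 in L-RUN, more than 2 technical SDs, and did not reach the cut-off in any group.

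Levels can be set against each other between genes only per length, which was taken here as the mean regularized log value minus log2 of the longest annotated transcript in kilobases. On this scale Junb was highest, at 8.99, followed by Arc at 8.62 and Egr1 at 8.09. Fosb (5.83), Npas4 (5.36) and Egr2 (3.33) were lowest. The genes called in L-RUN ranked 2 (Arc), 4 (Nr4a1) and 5 (Egr3) of 10 in level per length.

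The counts over the 10 genes were set beside those over all expressed genes in each contrast. These genes, and the lists followed below, were chosen with earlier results of these data known. The shares set beside them are therefore a description and not a test. In L-RUN minus LD, 3 of the 10 genes were called lower and 0 higher. Among all expressed genes, 2.33% were called lower and 0.797% higher in the same contrast, and Egr2 is counted among the 10 genes although it was below that level. The median difference of the 10 genes was -0.14, beside -0.002 over all expressed genes, and the differences ran from -0.45 for Arc to 0.06 for Egr4. In RUN minus LD, 1 gene was called lower and 0 higher, against 0.952% and 0.362% of all expressed genes, and the median was -0.12, beside -0.001. In H-RUN minus LD, 0 genes were called lower or higher, against 0.472% and 0.354% of all expressed genes, and the median was -0.07, beside -0.004. In CE minus LD, 0 were called lower or higher, against 0.266% and 0.332%, and the median was 0.05, beside -0.002. These 4 contrasts share the LD library, so that a high or low LD value would move them together. All 3 runner libraries lay below both LD and CE for 7 of the 10 genes and for 16.2% of all expressed genes. L-RUN was lowest of the 5 libraries for 28.1% of all expressed genes and CE highest for 22.9%.

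**Figure D2:**
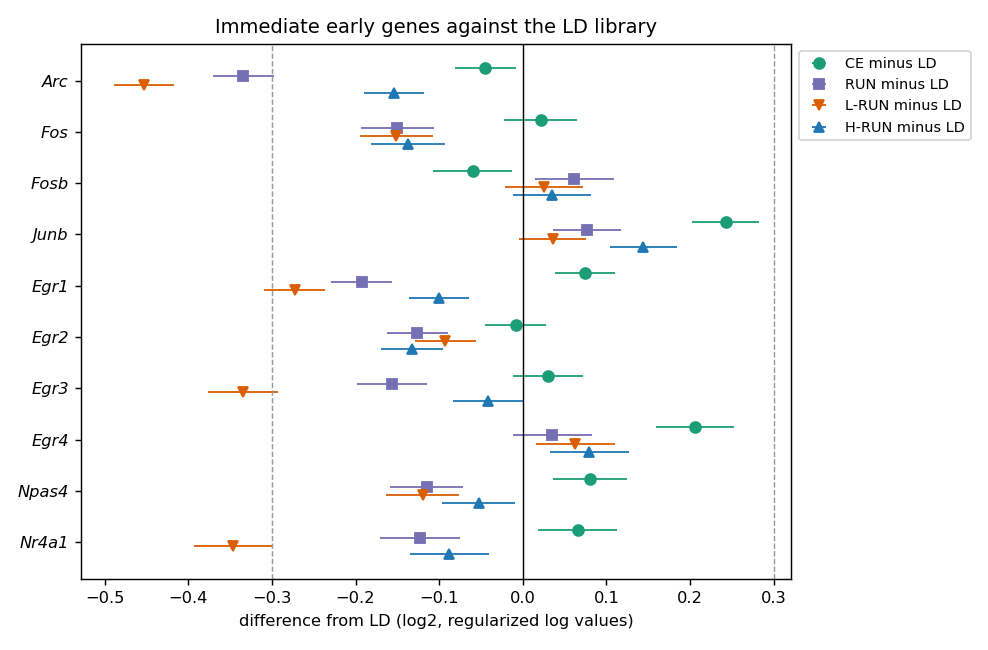
Difference of each group from LD (x axis, log2, regularized log values) for the 10 genes (y axis), with the technical SD of a difference as bars and the cut-off of 0.3 in either direction as dashed lines. Arc, Egr3 and Nr4a1 pass the cut-off in L-RUN and Arc in RUN, and no CE or H-RUN point passes it.

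Groups other than LD were also set against each other. High runners had higher values than low runners for 9 of the 10 genes, with a median difference of 0.09 (beside 0.003 over all expressed genes). Arc came closest to the cut-off, at 0.299, followed by Egr3 at 0.29 and Nr4a1 at 0.26. No gene was called, against 0.974% of all expressed genes called higher and 0.561% called lower in H-RUN. CE had higher values than RUN for 9 of the 10 genes, Fosb being the exception at -0.12, and the median difference was 0.18 (beside 0.001). The differences reached 0.29 for Arc and 0.27 for Egr1 and passed the cut-off for 0 genes, against 0.539% of all expressed genes called higher and 0.295% called lower in CE. Over all 5 libraries, 4 of the 10 genes spanned at least 0.3 between their highest and lowest library, against 5.12% of expressed genes. They were Arc (0.45), Nr4a1 (0.41), Egr3 (0.36) and Egr1 (0.35). Without the L-RUN library, Arc was the 1 gene left, at 0.33, against 2.6% of expressed genes.

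Because RUN pooled the RNA of the low and the high runners, its value can be set beside the one computed from both parts in equal amounts. For 9 of the 10 genes the measured value lay within 0.04 of the mixture. Arc was at -0.33 against LD in the RUN library and at -0.30 in the computed mixture, Egr1 at -0.19 and -0.18, and Egr3 at -0.16 and -0.18. Nr4a1 was the exception. It was at -0.12 in RUN and at -0.21 in the mixture, a residual of 0.09 that is 2.15 times the SD of the residual at its level of expression. For Arc, the same ratio was -1.22. Differences between mice, or in dissection and extraction, do not enter this residual.

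**Figure D3:**
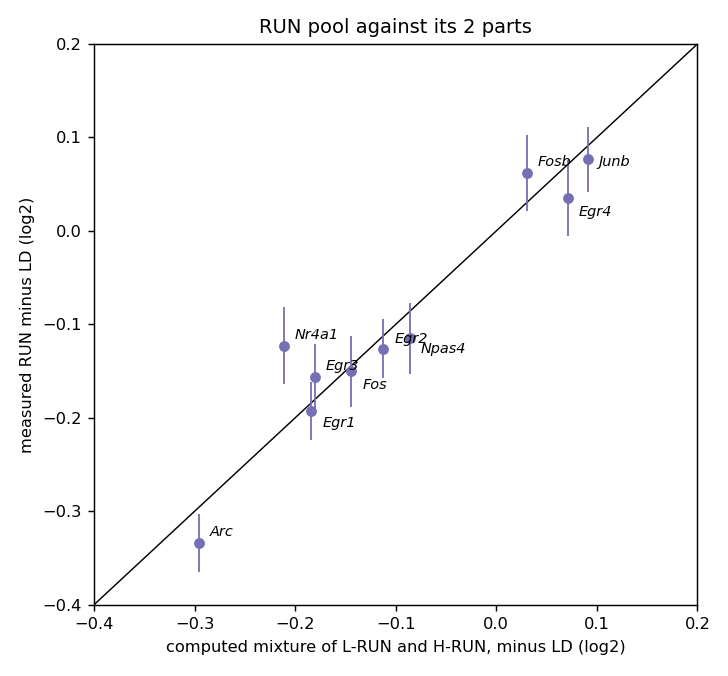
Measured difference of RUN from LD (y axis, log2) against that of the computed mixture of L-RUN and H-RUN (x axis, log2), 1 point per gene, with the SD of the residual as bars and the line of equality. Nr4a1 lies farthest from the line, 0.09 above it.

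Other genes that are rapidly induced by activity were followed in a list of 41 symbols, of which 40 were in the files and 36 were expressed. Here 3 genes were called higher in H-RUN, 2 in RUN and 1 in L-RUN, 1 was called lower in L-RUN, and 0 were called in CE. Among all expressed genes, 0.354% were called higher in H-RUN, 0.362% in RUN and 0.797% in L-RUN, and 2.33% were called lower in L-RUN, so that 1 of 36 lower is near the background. The median difference from LD was -0.01 in L-RUN and 0.01 in H-RUN, beside -0.002 and -0.004 over all expressed genes. The gene called lower was Nr4a3, another nuclear receptor of the Nr4a1 family. Nr4a3 had regularized log values of 8.32 in LD and 8.33 in CE, against 7.81 in L-RUN, 8.06 in RUN and 8.14 in H-RUN, and its difference of -0.51 in L-RUN was wider than that of Arc. The genes called higher were Sgk1, Ptgs2 and Rgs4. Sgk1, a stress- and glucocorticoid-responsive kinase, differed from LD by 0.06 in CE, 0.26 in L-RUN and 0.55 in H-RUN. Ptgs2, the cyclooxygenase of prostaglandin synthesis, differed by 0.40 in H-RUN and 0.10 in L-RUN. Rgs4, which shortens G protein signals, was higher by 0.42 in H-RUN and 0.38 in L-RUN.

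Genes of the delayed wave code mainly for secreted and synaptic proteins, and 9 of 9 were expressed. In H-RUN 3 of them were called higher, Penk, Nptx2 and Bdnf, against 0.354% of all expressed genes called higher. The list was chosen with earlier results of these data known, so the share beside it is a description and not a test. In RUN 2 were called, Penk and Nptx2, in L-RUN 1 was called, Penk, and none was called lower against LD in any group. The median of the 9 genes was 0.01 in H-RUN and 0.02 in L-RUN. Penk, the precursor of enkephalin, had regularized log values of 10.46 in LD and 10.52 in CE, against 11.37 in L-RUN, 11.32 in RUN and 11.29 in H-RUN, with the runner libraries well apart from LD and CE. Nptx2, a pentraxin that clusters AMPA receptors, had 9.50 in LD and 9.51 in CE, against 9.70 in L-RUN, 9.82 in RUN and 9.92 in H-RUN. Bdnf, a neurotrophin, differed from LD by 0.36 in H-RUN and 0.19 in L-RUN. Penk, Nptx2 and Bdnf thus had higher values than LD in the runner libraries, in which Arc, Egr1 and Egr3 had lower ones.

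Upstream of the immediate early genes, the list of kinases and transcription factors that turn calcium entry into transcription held 28 symbols, of which 26 were expressed. In L-RUN 3 were called lower, Mef2a, Mef2d and Camk2a, in RUN 2, Mef2a and Mef2d, and 0 were called higher in any group. Among all expressed genes, 2.33% were called lower in L-RUN and 0.952% in RUN. The median of the 26 genes was -0.09 in L-RUN and -0.01 in H-RUN. Mef2a and Mef2d code for transcription factors that act on Arc and Nr4a1 among other genes. Mef2d had regularized log values of 11.09 in LD and 11.04 in CE, against 10.65 in L-RUN, 10.78 in RUN and 10.96 in H-RUN. As in Arc, LD and CE were above H-RUN, and H-RUN was above L-RUN. The RUN pool of both lay between them. Mef2a differed from LD by -0.43 in L-RUN, -0.31 in RUN, -0.15 in H-RUN and -0.17 in CE. Mef2c, in the same list, was not called in any group and is named here for comparison. It differed from LD by -0.007 in L-RUN, 0.02 in RUN, 0.06 in H-RUN and -0.09 in CE. A link between these genes and the values of Arc and Nr4a1 was not tested. Camk2a, the calcium-dependent kinase abundant at excitatory synapses, differed from LD by -0.31 in L-RUN and by 0.002 in H-RUN. Creb1 and Srf, which code for CREB and SRF, were added for their link to the promoter motifs after the values had been seen. Creb1 differed from LD by -0.13 in L-RUN and -0.18 in CE, and Srf by -0.15 and 0.03, none of them past the cut-off.

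**Figure D4:**
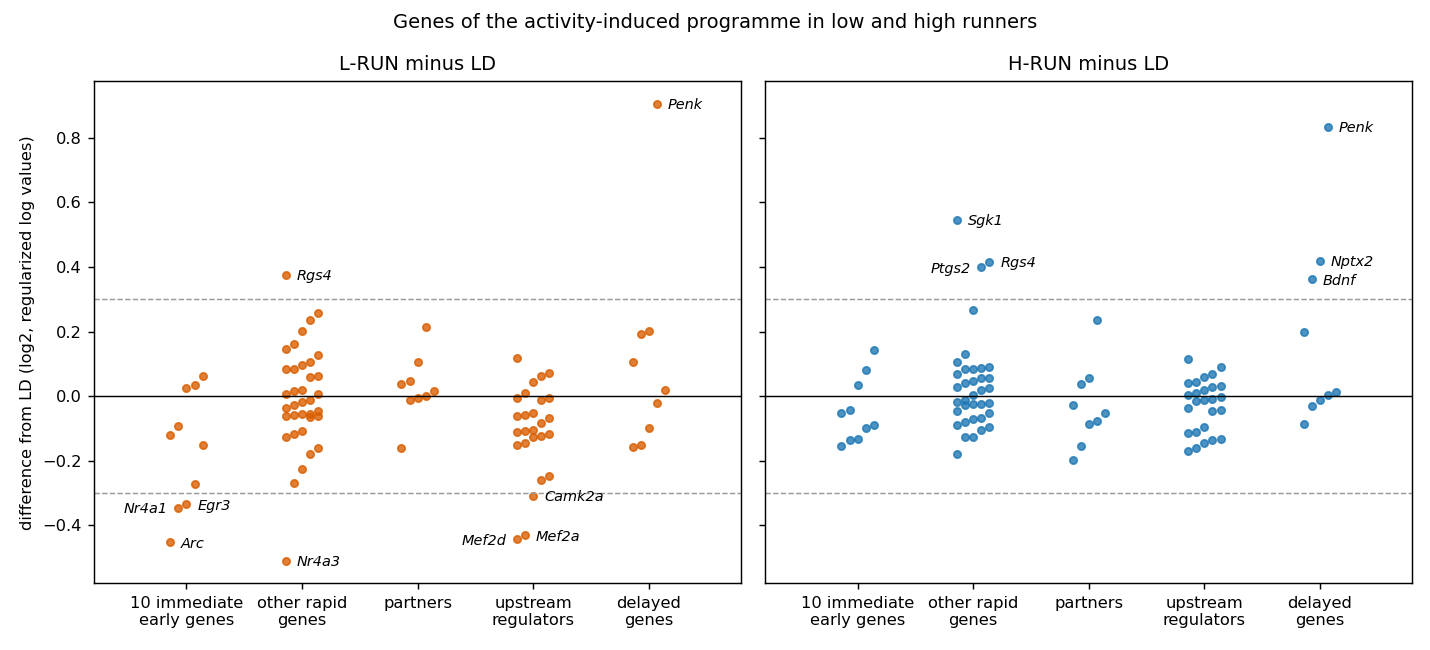
Difference from LD (y axis, log2, regularized log values) in L-RUN (left) and H-RUN (right) for the 10 immediate early genes, other rapid genes, partners, upstream regulators and delayed genes (x axis), 1 point per gene, with genes past the dashed cut-off of 0.3 named. Arc, Egr3, Nr4a1, Nr4a3, Mef2a, Mef2d and Camk2a lie below it in L-RUN, and in H-RUN no gene does.

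The pattern of the genes was also used to look for others like it. The measure was the root mean square difference between the 4 differences from LD, among 690 expressed genes outside the 10 that spanned at least 0.3 over the 5 libraries. Nearest to Arc were Mef2d, at 0.017, and Irs2, an adaptor of insulin and IGF receptors, at 0.028. Nearest to Egr3 were Cacna1b, the pore of the N-type calcium channel, at 0.021, and Lsm11 at 0.027. Nearest to Nr4a1 were Cacna1b at 0.037 and Peg3 at 0.038. The mean of the 10 genes, which was 0.06 in CE, -0.16 in L-RUN, -0.10 in RUN and -0.04 in H-RUN, was near those of Apba2 (0.035), Ptprn2 (0.036), Fam219a (0.040) and Tril (0.043). This likeness rests on 4 values per gene, which share the LD library.

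Markers of other cells also differed from LD in L-RUN. CA pyramidal neurons lie next to the DG and also express these genes. The summed level of 7 CA pyramidal markers differed from LD by -0.25 in L-RUN, -0.09 in RUN, 0.02 in H-RUN and 0.07 in CE. In L-RUN, 3 of the 7 were called lower (Fibcd1, Mpped1 and Wfs1), against 2.33% of all expressed genes. As in Arc, L-RUN was below H-RUN and CE, but LD, which was highest for Arc, was here below both CE and H-RUN. In H-RUN, 1 of the 7 was called lower (Fibcd1, at -0.52) and 1 higher (Bok, at 0.41), against 0.472% and 0.354% of all expressed genes. The median of the 7 was 0.07 in H-RUN, against -0.29 in L-RUN. The 7 granule neuron markers differed by -0.04 in sum in L-RUN, but Prox1, the transcription factor that defines granule neurons, differed by -0.41 and C1ql2 by 0.37. The summed levels of astrocyte, oligodendrocyte, microglia and endothelial markers differed from LD by -0.20, -0.23, -0.17 and -0.14 in L-RUN, and inhibitory neuron markers differed by 0.05. These sums are weighted towards the most abundant markers. The medians over the markers in L-RUN were -0.12, -0.21, -0.12 and -0.07, and -0.04 for inhibitory neurons. The part of these cells and of the leptomeningeal RNA in the L-RUN values of the immediate early genes was not tested. Transcript length was followed as well. With the trend with length removed, the L-RUN difference was -0.46 for Arc, -0.37 for Nr4a1 and -0.32 for Egr3, so that the same 3 genes were called, while 182 expressed genes were called lower in place of 316.

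**Figure D5:**
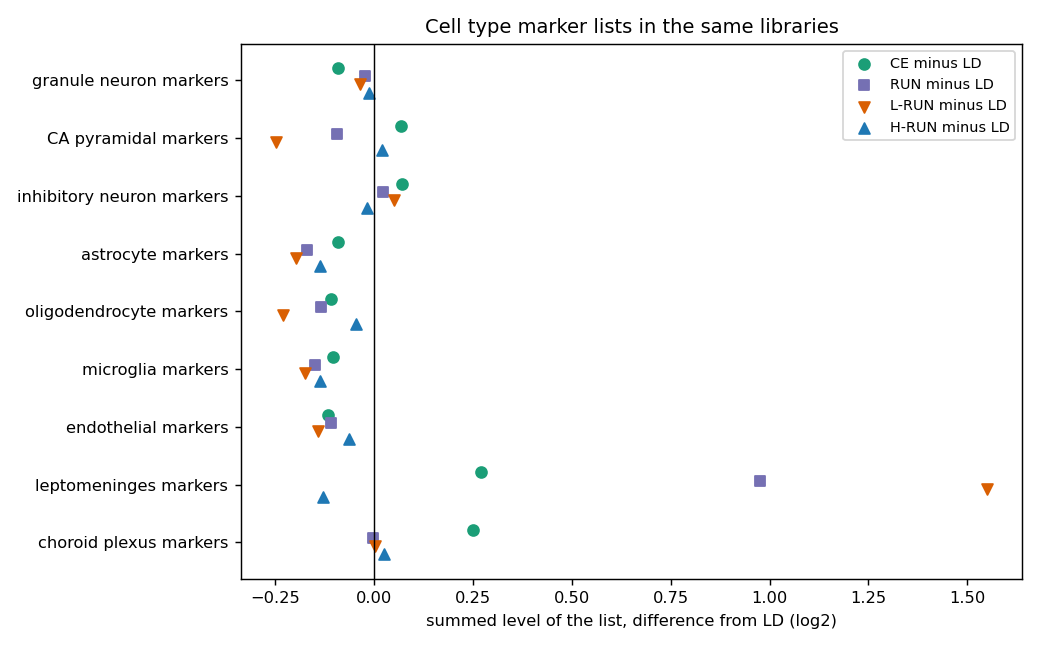
Difference from LD (x axis, log2) in the summed level of cell type marker lists (y axis), 1 point per group and list. CA pyramidal markers are at -0.25 in L-RUN and leptomeningeal markers, whose sum is weighted towards Ptgds, at 1.55 (median over the markers 0.65), the granule neuron markers between -0.09 and -0.01 in all groups.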

How the data were processed

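PolyA RNA of the DG was sequenced in 5 libraries, 1 per group, from pooled RNA of 8 or 4 mice. Per the submitters' processing notes and methods, the authors trimmed adapters, mapped reads to mm10 with TopHat2 2.0.10, assigned them to RefSeq genes with HTSeq and deposited regularized log values on the log2 scale from DESeq2 1.10.1, with all libraries normalized at once. Counts were not used here, so depth is unknown, and the shrinkage of the regularized log cannot be undone.

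Samples were grouped by their titles. Differences between libraries were computed per gene over 23420 symbols and called at a size of at least 0.3. Genes with a mean of at least 5 (13550) served as background. The technical SD was taken, per decile of expression, from the median absolute deviation of RUN minus log2 of the linear mean of L-RUN and H-RUN, with a variance of 1.5 single-library variances rescaled to 2. Positions and transcript lengths came from GENCODE M21 (GRCm38), matched by symbol for 94.2% of expressed genes, and promoters from RefSeq. For Arc, Egr1 and Egr3 no promoter was used.

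The members and lists were chosen with earlier results of these data known. Named genes were the 10 members, the genes of the rapid, delayed, partner and upstream lists called against LD in at least 1 group, the 5 genes nearest in pattern to the mean of the members (1 of them is not reported here) and the 2 nearest to each called member. Marker genes are named as examples of their lists. Alternatives were a cut-off of 0.4, centring, quantile normalization, a minimum mean of 7 or none, LD and CE averaged as the baseline, removal of the length trend with lowess (fraction 0.3), the mixture of log values and leaving out L-RUN, which was chosen after seeing the data. The scripts were tested on simulated data. Software was statsmodels 0.14.6, numpy 2.4.6, pandas 2.3.3 and matplotlib 3.10.9 under python 3.11.15.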

Additional observations from a re-analysis of the deposited data

Results flagged for a closer look

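Egr1 lay on opposite sides of LD in CE and in the runner libraries, each time by more than 2 technical SDs (technical SD 0.036). The difference from LD was 0.0744 in CE, -0.273 in L-RUN, -0.193 in RUN and -0.1000 in H-RUN. None of these passed the cut-off of 0.3, the groups share the LD library, and the difference between groups was not tested.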

How the results depend on the processing

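With a cut-off of 0.4, 0 of the 10 genes were called in RUN minus LD in place of 1, and 1 (Arc) in L-RUN minus LD in place of 3. With the trend with transcript length removed, 1 gene (Arc) was called in H-RUN minus L-RUN in place of 0. Without the L-RUN library, an alternative chosen after seeing the data, 1 gene spanned at least 0.3 in place of 4. With LD and CE averaged as the baseline, Egr1 joined the genes called lower in L-RUN, at -0.31, which made 4, and the uncalled L-RUN values of Junb and Egr4 turned from above to below 0 (-0.09 and -0.04). That of Junb also did so, to -0.02, without the length trend. With the averaged baseline, Junb and Egr4 also lay below 0 in RUN (-0.04 and -0.07), and Egr4 did in H-RUN (-0.02). Centring, quantile normalization, a minimum mean of 7 and no filter left the called genes in each contrast as they were. No called difference changed sign under these settings. Precision from depth cannot be stated, as depth is unknown. No paired analysis was possible because each group has 1 library.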

Other observations

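Dimer partners and corepressors of the immediate early proteins were also followed. Of 9 genes, all expressed, 0 were called against LD in any group, with medians of 0.11 in CE, 0.02 in L-RUN, 0.01 in RUN and -0.05 in H-RUN. Jund, which pairs with Fos proteins, and Nab2, a corepressor of Egr proteins, were picked after their values were seen. Jund had regularized log values of 11.20 in LD and 11.46 in CE, against 11.41 in L-RUN, 11.41 in RUN and 11.43 in H-RUN, with LD below the other 4 libraries. Nab2 differed from LD by 0.19 in CE and 0.04 in L-RUN.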
